A study of Mus musculus with 6 samples.

Results

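Nucleolar ribosome biogenesis factors were examined as a group of 46 genes in mouse skeletal muscle with and without the transcription factor ATF4. The members were chosen by gene symbol. A gene belonged to the group when its symbol began with Nop, Nol, Utp or Rrp followed by a digit, which gave 33 genes, or when it was 1 of 18 further genes listed by name, of which 13 had an array feature of their own. The group thus held 46 of the 14860 genes with a feature of their own, on 47 of 16755 array features. Fbl, Npm1, Dkc1, Polr1c and Wdr43, the other listed genes, were not analysed here.

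Microarrays measured RNA of the tibialis anterior, a fast-twitch muscle at the front of the shin. The animals were 3 mice with a muscle-specific knockout of ATF4 (ATF4 mKO) and 3 littermate controls, all males aged 8 weeks. All 6 had been fasted for 24 h when the muscle was taken, controls included, so fed muscle is not part of the comparison. The sources used here give neither the Cre driver nor the exons removed.

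Ribosomes are assembled in the nucleolus. RNA polymerase I transcribes the ribosomal DNA into a long precursor. Small nucleolar ribonucleoproteins of the box C/D and box H/ACA kinds modify its nucleotides. Separate sets of assembly factors fold and cut the parts that become the small and the large subunit. In skeletal muscle, ribosome production is known to rise in growth and to slow when nutrients are short. ATF4 is a basic leucine zipper factor that is translated preferentially when amino acids are scarce and that activates genes of amino acid supply. The comparison addressed whether the mRNAs of the assembly machinery depend on ATF4 in fasted muscle.

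The knockout was visible at Atf4 itself (array feature 6831994). Its log2 signal was 8.65, 8.76 and 8.76 in control mice 1, 2 and 3, and 6.73, 7.07 and 6.97 in ATF4 mKO mice 1, 2 and 3. All ATF4 mKO muscles lay below all controls, and Atf4 fell by a log2 fold change of -1.80 ± 0.10 (SE), to 28.7% of control (limma, adjusted p = 0.00268). The 7 measured muscle fibre markers, such as Ckm and Acta1, had mean log2 signals of 10.5 to 12.7, against column medians of 5.84 to 5.91 over all features.

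None of the 46 nucleolar factors passed an adjusted p of 0.05 in limma in either direction. Most stood very near control: 42 of the 46 had a log2 fold change smaller than 0.15 in size. The other 4 were Nol12, Nop14, Brix1 and Wdr12, all below control. Nol12 stood at 63.0% of control, and the remaining 45 members ranged from 85.9% of control for Nop14 to 109% for Rrp1b. Over all 16755 features, 0.0119% passed in the lower direction (2 features) and 0% as higher. Before adjustment, with p under 0.05, 1 member was lower and 0 were higher, where the shares over all features were 1.71% lower and 1.38% higher. No filter on low values was applied, so all 46 members were tested.

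Small effects could not be detected with 3 mice per group, and Nol12, at 63.0% of control, did not pass the threshold either. Larger effects were bounded by the intervals, which were taken for each member separately and not adjusted for the number of members. The 95% interval of the log2 fold change included 0 for 45 of the 46 members. For 40 members the lower end of the interval lay above 75% of control, and for 29 the whole interval lay between 80% and 125% of control. In bulk muscle, fewer cells of a type and less RNA per cell cannot be told apart, and the arrays measured mRNA and not rRNA, ribosomes or protein.

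**Figure D1:**
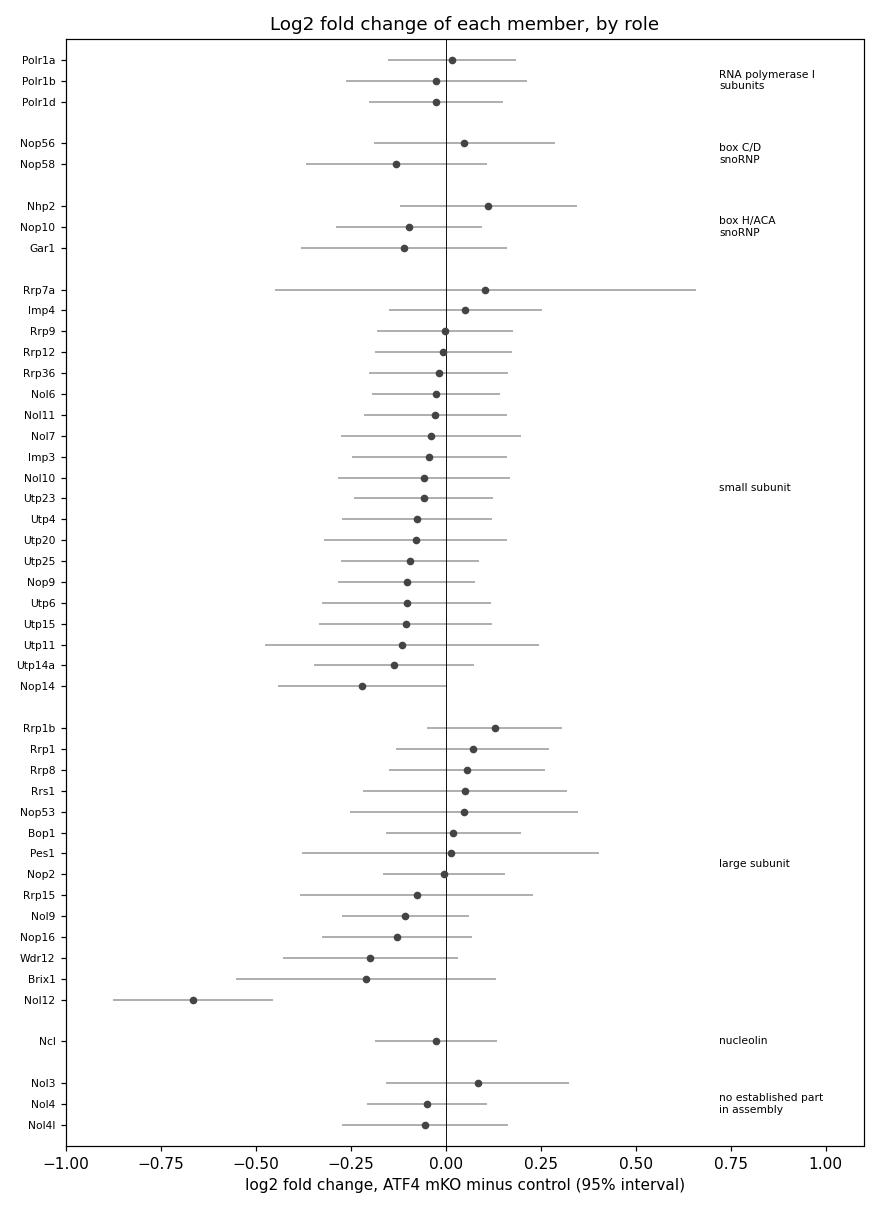
Log2 fold change (ATF4 mKO minus control, 3 mice per group) of each of the 46 members on the x axis, grouped by role; points are limma estimates and bars are 95% intervals. Nol12 is the single member whose interval does not reach 0, and 42 of 46 points lie within 0.15 of 0.

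Nol12 had the lowest log2 fold change of the group (array feature 6831851). It is the gene of a nucleolar RNA-binding protein with a part in cutting the rRNA precursor on the large subunit side. Its log2 signal was 5.84, 5.99 and 6.11 in control mice 1, 2 and 3. In ATF4 mKO mice 1, 2 and 3 it was 5.36, 5.25 and 5.34. The groups did not overlap, and the highest ATF4 mKO mouse lay well under the lowest control. The means were 5.98 ± 0.14 and 5.32 ± 0.06 (SD, n = 3), a log2 fold change of -0.67 ± 0.09 (SE) with a 95% interval of -0.88 to -0.45. In limma its unadjusted p of 0.000101 ranked 8 of all 16755 features, but its adjusted p was 0.211, short of the threshold. Permuting the 6 mice exactly and on both sides returned 0.10, which is the lowest p possible in this design. Its signal was at percentile 42.9 of all features, below the median, where an array summary is compressed by background. Over 14 alternative settings its log2 fold change ran from -0.74 to -0.60 and its adjusted p from 0.069 to 0.967. The feature was dropped when the lower 50% of features were left out.

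Nol12 lies on chromosome 15, as does Atf4, with 30 measured genes from the one to the other in the RefSeq order. Of the 100 measured genes nearest to Atf4, 50 on each side, 50 were lower and 50 higher in ATF4 mKO muscle, with a median log2 fold change of 0.005. Of these, 1 was lower (Nol12) and 2 were higher at an unadjusted p under 0.05, and none passed limma's threshold. The other members on this chromosome were Brix1, Utp23, Bop1 and Rrp7a, and Rrp7a, at 41 measured genes on the other side of Atf4, had 0.10.

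The promoter of Nol12 is shown because Nol12 was the member with the smallest p. The 250 bases before the annotated start (RefSeq, GRCm38.p6, chr15:78934683-78934932, + strand, 5′ to 3′) read as follows, with a match to a loose form of the C/EBP-ATF response element in capitals.
Nol12: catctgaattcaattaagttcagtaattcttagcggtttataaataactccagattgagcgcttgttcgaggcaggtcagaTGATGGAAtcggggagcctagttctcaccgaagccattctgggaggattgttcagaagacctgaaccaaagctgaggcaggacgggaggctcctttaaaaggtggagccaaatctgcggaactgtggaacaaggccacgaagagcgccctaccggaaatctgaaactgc
The C/EBP-ATF response element is the composite site bound by ATF4 with a C/EBP partner. Its exact letters TTGCATCA, searched on both strands from 250 bases before to 50 after the start, were found in 0 of the 36 members with a promoter in the table, and in 0.816% of the promoters of 11894 measured genes. The loose form TGATGNAA, with 1 free base, was searched after the exact form had given 0 matches and with the members' p-values already known. It matched 2 of 36 members (5.56%), against 3.54% of measured genes. The Nol12 match begins 169 bases before the start. The other match was in Nop14, 21 bases after the start (chr5:34660109-34660138, - strand).
Nop14: tgggcgtggttTTACATCAgcatcctatgc
These 2 members also had the smallest p-values of the group. Because the form was chosen late, the matches are a description of the letters and no evidence of binding.

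The RNA polymerase I subunits had differences near 0 on the features with their highest means. Polr1a encodes the largest subunit of the enzyme, Polr1b the second largest, and Polr1d a small subunit shared with RNA polymerase III. Polr1a had log2 signals of 7.11, 7.04 and 6.98 in controls and 7.07, 7.03 and 7.08 in ATF4 mKO muscle, a difference of 0.017 ± 0.07 (SE) with an interval of -0.15 to 0.19. The groups were interleaved. Polr1b had 5.72, 5.86 and 5.57 in controls and 5.78, 5.55 and 5.74 in ATF4 mKO muscle, a difference of -0.025 with an interval of -0.26 to 0.21. Polr1d had -0.025 on the feature with its highest mean, with an interval of -0.20 to 0.15. A further Polr1d feature (6912577) disagreed: it read 6.54, 6.66 and 6.83 in controls and 6.36, 6.33 and 6.53 in ATF4 mKO muscle, without overlap. There the signal stood at 83.0% of control, a log2 fold change of -0.27 ± 0.10 (SE). Its limma p-value was 0.0297 before adjustment, and its adjusted p was 1.00. The exons covered by each Polr1d feature are not known here.

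Of the small nucleolar ribonucleoprotein members, none had an interval that excluded 0. Nop56 and Nop58 are the paired core proteins of the box C/D particles, which guide ribose methylation, and they differed from control in opposite directions. Nop56 read 7.83, 7.54 and 7.50 in controls and 7.61, 7.74 and 7.67 in ATF4 mKO muscle (log2 fold change 0.049, interval -0.19 to 0.29). Nop58 read 7.66, 7.62 and 7.66 in controls and 7.60, 7.64 and 7.30 in ATF4 mKO muscle (-0.13 ± 0.10, SE). The Nop58 difference came mainly from ATF4 mKO mouse 3, while mouse 2 lay among the controls. Both genes host small nucleolar RNAs, as do Ncl and Nop53.

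Box H/ACA particles guide the conversion of uridine to pseudouridine, and 3 of their core proteins were measured. Nop10 had 9.65, 9.59 and 9.69 in controls and 9.55, 9.65 and 9.44 in ATF4 mKO muscle, or -0.098 ± 0.08 (SE). Gar1 had -0.11 ± 0.12 (SE), and Nhp2 had 0.11 ± 0.10 (SE), from 6.95, 7.20 and 7.23 in controls to 7.16, 7.21 and 7.35 in ATF4 mKO muscle. Each of the 3 overlapped between the groups, and members of the same particle thus had differences of both signs.

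The small subunit factors were the role with the most even direction. They comprise the components of the large processome that assembles on the growing precursor, and 18 of the 20 measured had values below control, the exceptions being Imp4 and Rrp7a. The differences were small, with a median of -0.058 and a range of -0.22 to 0.10, and 0 of the 20 passed limma's threshold or an unadjusted p under 0.05. With 1 mouse left out, 15 (without ATF4 mKO mouse 3) to 17 of the 20 were lower and the median ran from -0.086 to -0.046. Over all features, 49.4% were lower and the median was 0.001.

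Nop14, a processome component needed for the small subunit in yeast, had the lowest log2 fold change of the small subunit factors. It read 8.39, 8.26 and 8.29 in controls and 8.13, 8.23 and 7.93 in ATF4 mKO muscle. The groups did not overlap, though ATF4 mKO mouse 2 lay just below the lowest control. Nop14 thus stood at 85.9% of control, a log2 fold change of -0.22 ± 0.10 (SE) whose interval was -0.44 to 0.002. Its unadjusted p was 0.0518 and its exact permutation p 0.10. Without ATF4 mKO mouse 3 the value was -0.14.

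Among the UTP proteins, components of the processome, Utp14a read 6.87, 7.04 and 6.97 in controls and 6.87, 6.92 and 6.68 in ATF4 mKO muscle. Its log2 fold change was -0.14 ± 0.09 (SE), and ATF4 mKO mouse 3 was the lowest of the 6. Nop9, an RNA-binding repeat protein of the same pathway, had -0.10 ± 0.08 (SE) and Utp25 had -0.095 ± 0.08 (SE). Imp3, which helps the small nucleolar RNA pair with the precursor, had -0.043, and its partner Imp4 had 0.051. Rrp7a had the widest spread of the 46 members, with 5.93, 5.68 and 6.65 in controls and 6.21, 5.96 and 6.40 in ATF4 mKO muscle. Its difference of 0.10 ± 0.24 (SE) had an interval of -0.45 to 0.66, the widest of the group.

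The large subunit factors were split evenly, with 7 of 14 below control and 7 above. Their median log2 fold change was 0.004. It turned to -0.003 with median centring, to -0.055 without control mouse 2, and reached 0.014 without ATF4 mKO mouse 3. Pes1, Bop1 and Wdr12 form a complex needed to mature the large subunit rRNAs, and their values did not run together. Pes1 read 6.84, 6.12 and 6.49 in controls and 6.51, 6.57 and 6.41 in ATF4 mKO muscle, a difference of 0.013 with an interval of -0.38 to 0.40. The 3 controls spread more widely than the 3 ATF4 mKO mice, which lay within their range. Bop1 had 0.020 with an interval of -0.16 to 0.20. Wdr12 read 6.41, 6.34 and 6.19 in controls and 6.27, 6.04 and 6.03 in ATF4 mKO muscle, a difference of -0.20 ± 0.10 (SE) with an interval of -0.43 to 0.031. The Wdr12 groups overlapped through control mouse 3 and ATF4 mKO mouse 1.

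Brix1, a factor for early large subunit particles, read 8.89, 9.10 and 9.10 in controls and 9.01, 8.96 and 8.49 in ATF4 mKO muscle. The difference of -0.21 ± 0.15 (SE) rested on ATF4 mKO mouse 3, without which it was -0.042. Nol9, a polynucleotide kinase that acts on the precursor, read 7.13, 7.26 and 7.17 in controls and 7.11, 7.07 and 7.07 in ATF4 mKO muscle. All ATF4 mKO mice were below all controls, by a narrow margin, and the log2 fold change was -0.11 ± 0.07 (SE). Nop16 had -0.13 ± 0.09 (SE), and Nop2, an rRNA methyltransferase, had -0.005 with an interval of -0.17 to 0.15.

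Rrp1b, a nucleolar protein related to Rrp1, was the member with the highest log2 fold change. It read 5.72, 5.89 and 5.82 in controls and 5.97, 5.94 and 5.90 in ATF4 mKO muscle, where every mouse was above every control. Rrp1b thus stood at 109% of control, a log2 fold change of 0.13 ± 0.08 (SE) whose interval was -0.048 to 0.31. Its paralogue Rrp1 had 0.070 ± 0.09 (SE), with overlapping groups. Nop53, a large subunit factor with a signal well above the median of all features, had 0.048 ± 0.13 (SE).

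In total, 3 members lay below every control in every ATF4 mKO mouse (Nol12, Nop14 and Nol9) and 1 above (Rrp1b). Over all features the shares were 3.89% below and 3.89% above.

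**Figure D2:**
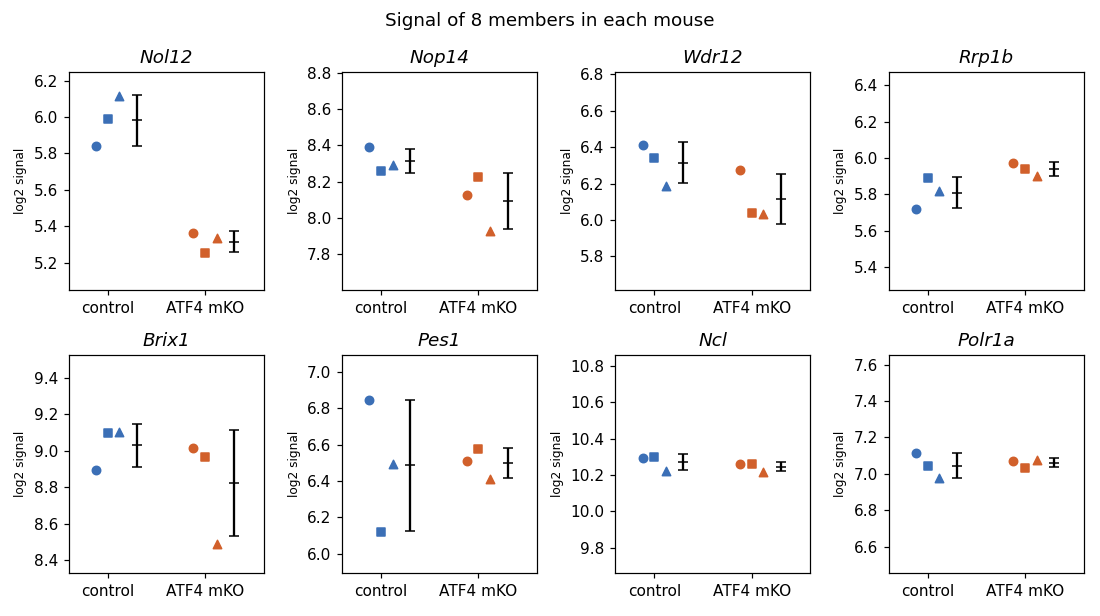
Log2 signal of 8 members in each of the 3 control (blue) and 3 ATF4 mKO mice (orange), with the group mean and SD as black bars; every panel spans the same range of log2 units. Nol12 separates by more than its spread, Nop14 and Rrp1b separate narrowly, and Wdr12, Brix1, Pes1, Ncl and Polr1a overlap.

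Nucleolin, the product of Ncl, is an abundant protein of the nucleolus that binds the rRNA precursor. Its signal was 10.30, 10.30 and 10.22 in controls and 10.26, 10.26 and 10.22 in ATF4 mKO muscle, a difference of -0.027 ± 0.07 (SE) with an interval of -0.19 to 0.13. The groups overlapped. Nol3, Nol4 and Nol4l entered the group by symbol and have no established part in ribosome assembly; Nol3 encodes an apoptosis repressor found in muscle. Nol3 had 0.085 ± 0.10 (SE), and without these 3 genes 31 of the remaining 43 were lower, with a median of -0.039.

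Over the 46 members, 33 were lower and 13 higher in ATF4 mKO muscle, 71.7% lower against 49.4% of all features. Their median log2 fold change was -0.041, or 97.2% of control, and that of all features was 0.001. Among the members above the median signal, 26 of 39 were lower with a median of -0.027, where 4030 of 8378 features above the median signal were lower with a median of 0.004. All 7 members below the median signal were lower, with a median of -0.055, where 49.4% of all features were lower. Of these members, Nol4 and Nol4l have no established part in ribosome assembly. Nol10, Nol11, Nol4l and Polr1b turned above control in some fits that left out a mouse. No test was made of these counts, since the members were chosen with earlier results of these data known and their mRNAs are not independent.

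The displacement was largest in ATF4 mKO mouse 3. That mouse had the lowest value of the 6 mice for 19 of the 46 members (41.3%), where it was lowest for 17.1% of all features, and each other mouse was lowest for 4 to 7 members. The median deviation of the members from the control mean was 0.007, 0.009 and -0.010 in control mice 1, 2 and 3. In ATF4 mKO mice 1, 2 and 3 it was -0.015, -0.011 and -0.071. Members below the control mean numbered 21, 22 and 25 in control mice 1, 2 and 3. They numbered 29, 27 and 31 in ATF4 mKO mice 1, 2 and 3. Of all 16755 features, 8809, 8655 and 7725 lay below the control mean in control mice 1, 2 and 3. In ATF4 mKO mice 1, 2 and 3 the counts over all features were 8415, 8650 and 7610. Each control is part of the mean it is set against, and an ATF4 mKO mouse is not. Of the 20 small subunit factors, 14 were below the control mean in each ATF4 mKO mouse, and 9, 10 and 12 in control mice 1, 2 and 3. Without ATF4 mKO mouse 3 the median log2 fold change was -0.017 and 29 of the 46 members were lower. Over all features, the median deviation of this mouse was 0.018. Above the median signal it was -0.007 over all features and -0.109 over the members.

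**Figure D3:**
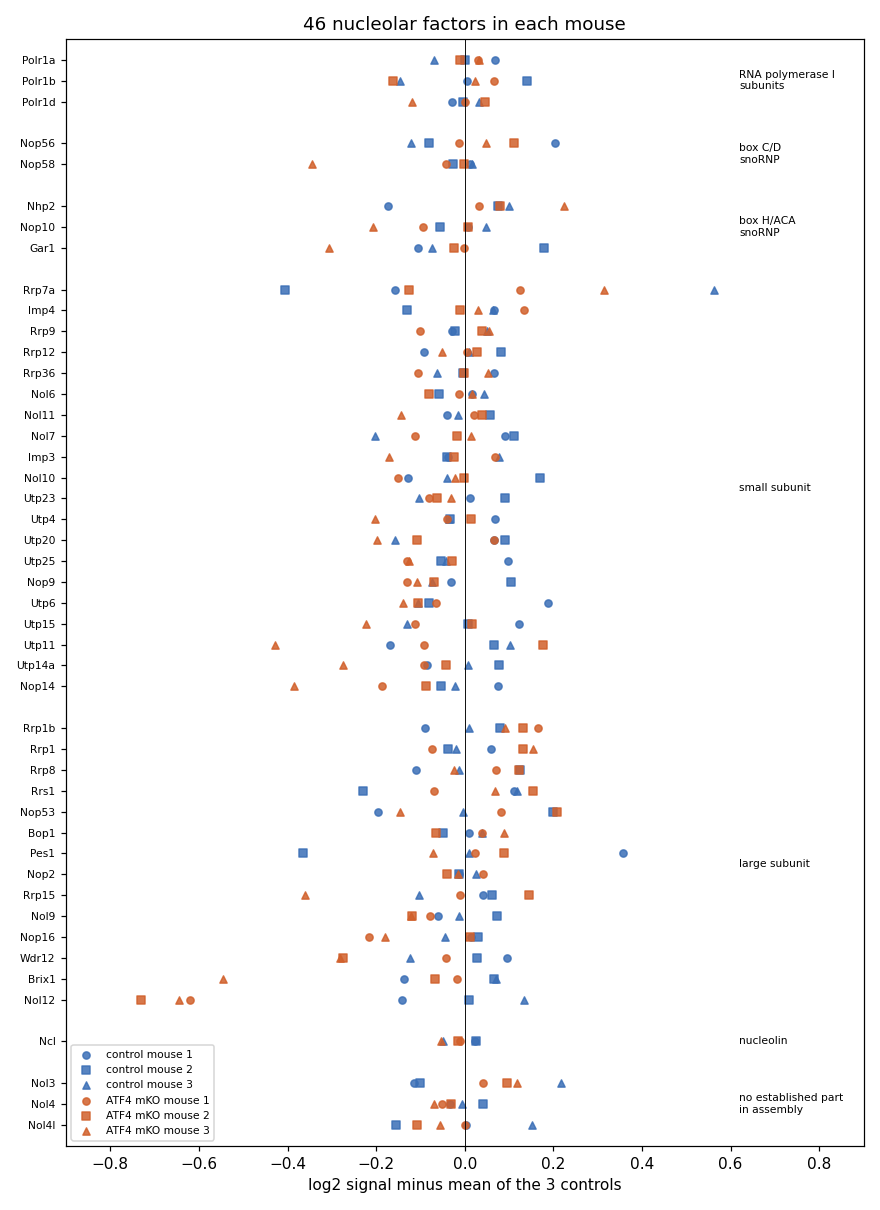
Log2 signal of each of the 46 members in each mouse, as the difference from the mean of the 3 controls (x axis), grouped by role; blue marks are controls, orange marks ATF4 mKO mice, and shapes give the mouse number. ATF4 mKO mouse 3 (triangles) holds the lowest mark for 19 of the 46 members.

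Other nucleolar factors were read from a list of 74 genes that are not members. Of the 59 measured, 47 had values below control, with a median log2 fold change of -0.090, or 93.9% of control. None passed limma's threshold, and 1 (Nip7) was lower at an unadjusted p under 0.05, against 1.71% of all features. In 11 of the 59 all ATF4 mKO mice were below all controls, and in 0 above, where each share over all features was 3.89%. Nip7, a large subunit factor, read 7.61, 7.80 and 7.62 in controls and 7.42, 7.53 and 7.23 in ATF4 mKO muscle. Its log2 fold change was -0.28 ± 0.10 (SE, unadjusted p = 0.0238, adjusted p = 1.00). Riok2, a kinase of late small subunit assembly, had -0.21 ± 0.09 (SE) and Gtpbp4, a large subunit GTPase, had -0.17 ± 0.08 (SE). Without ATF4 mKO mouse 3 the median of the list was -0.031 and 39 of the 59 were lower.

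The RNA exosome trims the ends of rRNA precursors. Of its 13 measured genes 11 had values below control, with a median of -0.071 and 0 past limma's threshold. At an unadjusted p under 0.05, 2 were lower, against 1.71% of all features. Exosc7 read 7.25, 7.21 and 7.23 in controls and 7.03, 7.03 and 7.09 in ATF4 mKO muscle, without overlap, for a log2 fold change of -0.18 ± 0.07 (SE, unadjusted p = 0.0306, adjusted p = 1.00). Exosc2 had -0.19 ± 0.08 (SE, unadjusted p = 0.0395). With 1 mouse left out, the exosome median lay between -0.12 (control mouse 3 left out) and -0.054. It was -0.079 without ATF4 mKO mouse 3.

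Among regulators of ribosomal DNA transcription, 3 of 9 measured had values below control, with a median of 0.023. The difference between this list and the others was not tested. Ubtf, the upstream binding factor of the ribosomal DNA, had 0.052, Tcof1, the treacle gene, had 0.090, and Ttf1, the termination factor, had -0.14 ± 0.07 (SE). Myc, a general activator of ribosome biogenesis genes, had -0.080 (interval -0.41 to 0.25). The list's median turned negative, with 5 of 9 lower, without ATF4 mKO mouse 1 (-0.065) or control mouse 2, and was 0.065 without ATF4 mKO mouse 3.

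**Figure D4:**
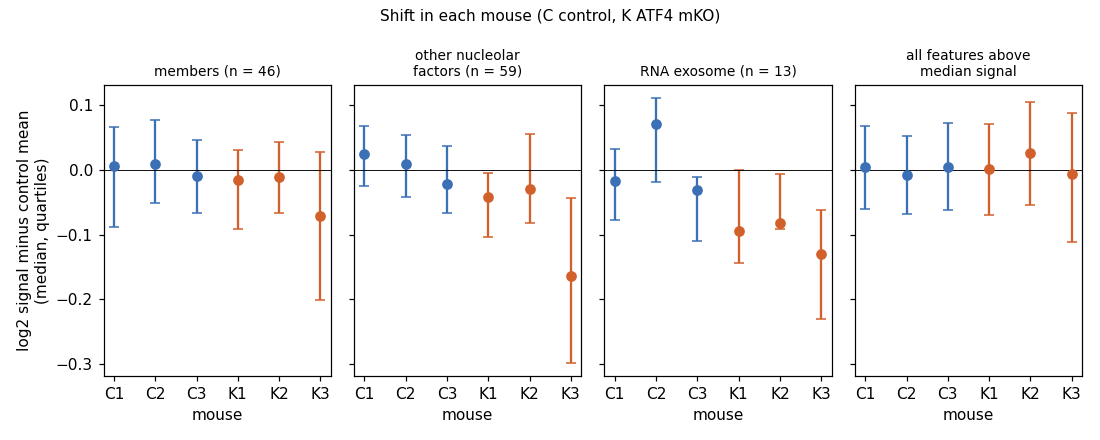
Difference of log2 signal from the control mean in each mouse (C1 to C3 controls, K1 to K3 ATF4 mKO), as the median (point) and quartiles (bar) over 46 members, 59 other nucleolar factors, 13 exosome genes and all features above the median signal. ATF4 mKO mouse 3 is the lowest mouse in the first 3 panels, at -0.071 for the members. For the exosome genes K1, K2 and K3 were at -0.094, -0.083 and -0.13, and C1, C2 and C3 at -0.017, 0.072 and -0.030.

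**Figure D5:**
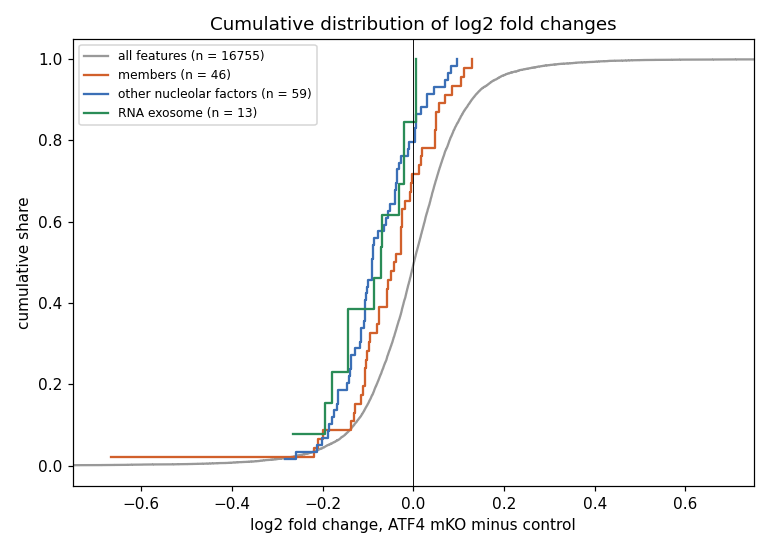
Cumulative share of genes or features (y axis) against log2 fold change, ATF4 mKO minus control (x axis), for the 46 members, 59 other nucleolar factors, 13 exosome genes and all 16755 features; the x axis stops at 0.75 on either side. The 3 gene lists lie to the left of all features by less than 0.1 at their medians.

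Promoter letters were compared across the group as well. In all, 12 short motifs were searched on both strands of the 36 member promoters, with the members' values known. The E-box CACGTG, the sequence bound by MYC and related factors, was present in 8 of 36 members (22.2%), against 10.1% of measured genes. The 8 were Imp4, Utp25, Nop2, Utp4, Utp20, Pes1, Nol11 and Rrp7a. Their median log2 fold change was -0.017, with 5 lower, and that of the other members with a promoter was -0.057. The sequences around the matches that lie wholly before the start are given for 4 of them, with the E-box in capitals (RefSeq, GRCm38.p6): Imp4 at chr1:34439691-34439730, + strand; Nop2 at chr6:125131806-125131845, + strand; Nol11 at chr11:107189402-107189441, - strand; and Rrp7a at chr15:83122987-83123026, - strand.
Imp4: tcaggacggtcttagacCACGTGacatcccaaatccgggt
Nop2: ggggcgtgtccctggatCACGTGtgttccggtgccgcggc
Nol11: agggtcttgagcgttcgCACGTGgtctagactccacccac
Rrp7a: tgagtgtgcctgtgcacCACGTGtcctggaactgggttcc
These 4 genes had log2 fold changes of 0.051, -0.005, -0.028 and 0.10. Utp25 is not shown, since its E-box lies 245 bases before an annotated start but 42 and 23 bases after its other starts.

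The other motifs were TGACGTCA (0 of 36 members, 2.72% of measured genes), CCATTTT (0 members, 5.53%), CTTTCC (27.8% of members, 30.1%), ACTACAA (13.9%, 4.15%), GGAAGTG (27.8%, 13.9%), CCGGAAG (27.8%, 14.4%), AAGATGGCG (2.78%, 2.49%), CCCATAA (2.78%, 2.26%) and TCTCGCGAGA (2.78%, 0.925%), the second share in each case being that of measured genes. GGAAGTG and CCGGAAG overlap in part. The median log2 fold change of the members with a match was -0.13 for ACTACAA, -0.093 for GGAAGTG, -0.067 for CCGGAAG and -0.058 for CTTTCC, with no test made. A match is a description of these letters in this window.

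Markers of other cell types were read beside these values. The proliferating cell markers, 9 of 10 measured, all had values above control, with a median log2 fold change of 0.14 and 0 past the threshold. Their summed linear signal ran from 305 to 572 in controls and from 491 to 633 in ATF4 mKO muscle, and the lowest sum was that of control mouse 3. For the macrophage markers the sums were 463 to 596 in controls and 515 to 603 in ATF4 mKO muscle. Median log2 fold changes were 0.029 over the 7 muscle fibre markers, all of them above control, -0.028 over 7 satellite cell markers, 0.14 over 7 macrophage markers, 0.086 over 6 endothelial markers and 0.055 over 6 fibroblast markers, none of which held a member past the threshold. Array signals have no true 0, and the part of these cells in the nucleolar values was not tested. Further, 22 of the 46 members overlap another annotated gene in RefSeq, 9 of them a coding gene, as Wdr12 does with Carf; Nol12 overlaps none. The strand each feature reads is not known here, so signal from such neighbours cannot be told apart.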

How the data were processed

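The deposited values were log2 expression, 1 per array feature and mouse; the scale was read from the values (1.63 to 13.0). The authors used GCOS and RMA with build mm9, per the submitters' processing notes, which give no versions. Such RMA processing quantile-normalises arrays and compresses low signals. The precision is limited by the 6 arrays, whose correlations ran from 0.983 to 0.991. The limma p-values set the difference between groups against the spread between these mice, moderated over all features.

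Features were named from the platform annotation, with symbols updated through Entrez identifiers: 14996 of 16755 had 1 symbol, 1019 several and 740 none, and 14941 matched RefSeq (GRCm38.p6), as did all 46 members. RefSeq coordinates are given for promoters only. Per gene, the feature with the highest mean was used. Features shared with another gene were not used, which left out 2 that carry Utp14b or Nop56.

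Genotypes were compared over all features with limma 3.58.1 (lmFit and eBayes, R 4.3.3), Benjamini-Hochberg adjustment and a threshold of 0.05. The fit was tested on simulated data with changes larger than that of any member, so the test gives no measure of detection at the sizes seen here. A percentage of control is the antilog of a difference between group means. The members, gene lists and tests were chosen with earlier results of these data known. A written rule named Atf4, the 12 members with the smallest p, the member with the largest change and that with the highest signal per role, a set of listed genes and up to 4 genes per further list; other members named were chosen after their values were seen. Of the 12 promoter motifs, the loose response element was added last.

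Alternatives were a replicate block, quantile normalisation, median centring, filters on low features, features with 1 symbol, trended and robust or no moderation, array weights, an adjusted p under 0.10, platform symbols, the mean over a gene's features, members without those that have no established part, and leaving out each mouse. No label says whether replicate numbers pair the mice, so the main fit was unpaired.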

Additional observations from a re-analysis of the deposited data

How the results depend on the processing

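No member passed limma's threshold in any alternative (0 in each, 0 to 0 without each mouse), and the smallest adjusted p of a member was 0.069, for Nol12 without the lowest 33.3% of features. Counts of small subunit, large subunit, exosome and other list genes under each setting were added after the data were seen. The count over all features, 2, became 1 under the replicate block and 1 under median centring. Dropping the lowest 33.3% of features gave 5, dropping the lower 50% gave 7, and keeping features that have a single symbol gave 4. Trended, robust moderation gave 7. The count was 4 at an adjusted p under 0.10, 3 with array weights and 0 without moderation (limma; 632 at an unadjusted p under 0.05). Without each mouse it was 1 (range 1 to 1). The block left 0 members called. Same-numbered mice had correlations of deviations of -0.0021, 0.069 and 0.14. These values cannot decide whether the numbers are pairs, and the main fit did not use them as such. Without moderation Atf4 had an adjusted p of 0.192. The member median was -0.054 without ATF4 mKO mouse 2 and -0.017 without mouse 3 of that group. Of 58 genes tried besides Atf4, 36 kept their direction in each alternative run for a gene and 22, all of them members, turned. Each gene had 13 to 15 alternatives, fewer than 15 where a filter dropped its feature. The replicate block, the filters, the single-symbol setting and the changes of moderation leave a log2 fold change as it is, so no direction could turn there. The genes tried that are not members had been chosen for the smallest p in their lists. The count therefore does not compare members with other genes. Array weights gave 0.013 for Imp3, 0.017 for Nop2 and 0.0039 for Rrp12. Without each mouse the turned values ran from -0.014 to 0.063 for Bop1, -0.098 to 0.021 for Imp3, -0.014 to 0.083 for Imp4, -0.12 to 0.026 for Nol10, -0.062 to 0.030 for Nol11, -0.13 to 0.020 for Nol4l, -0.056 to 0.0014 for Nol6, -0.14 to 0.017 for Nol7, -0.028 to 0.013 for Nop2, -0.050 to 0.15 for Nop53, -0.012 to 0.15 for Nop56 and -0.17 to 0.19 for Pes1. They ran from -0.018 to 0.051 for Polr1a, -0.098 to 0.045 for Polr1b, -0.060 to 0.022 for Polr1d, -0.052 to 0.035 for Rrp12, -0.19 to 0.066 for Rrp15, -0.054 to 0.025 for Rrp36, -0.099 to 0.39 for Rrp7a, -0.032 to 0.047 for Rrp9, -0.063 to 0.11 for Rrs1 and -0.26 to 0.042 for Utp11. The cause was not tested. Low signal limits the 7 members below the median of all features.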
